A study of Mus musculus with 48 samples.

Results

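RNA that sedimented with ribosomes from total homogenate (TH) of mouse cortex was compared between old and adult animals. The fraction, called SC_TH, was obtained by lysing homogenate with detergent in the presence of cycloheximide, which holds ribosomes on their mRNAs, and spinning the cleared lysate through a sucrose cushion. The libraries were chosen by their fraction and age labels alone, which gave 8 of the 48 libraries of the series: 4 from mice of 18 months (18m, mice 195 to 198) and 4 from adult mice (5m, mice 191 to 194). All were wild-type male C57BL/6JRj mice, and each library came from the cortex of 1 animal. The adult mice are given as 5 months old in the treatment protocol and as 6 months old in the sample labels, and are called 5m here. The input_TH libraries of the same mice, made from homogenate without the cushion, served for comparison. They were prepared with another kit and sequenced on another instrument than the pellets, so the level of a gene in SC_TH and in input_TH cannot be set side by side, while each change with age was measured within 1 kind of library. All 48526 genes of the table were considered, and 16427 of them had enough counts in SC_TH to be tested.

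Ribosomes translating an mRNA are dense enough to pass the cushion, so the pellet is enriched in RNA under translation, and the ratio of SC to input is used as a measure of translational efficiency (TE). Large nuclear ribonucleoprotein particles can also be dense, so the pellet of a whole-tissue lysate need not hold only mRNA. In the cortex, immediate early genes such as Arc and Fos are transcribed within minutes of neuronal activity without new protein synthesis, and their short-lived mRNAs encode transcription factors, phosphatases and synaptic proteins. Long noncoding RNAs such as Malat1 and Meg3 stay mostly in the nucleus and are not known to be translated.

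Library totals ranged from 5992223 to 13484631 counts in the 5m mice and from 9612408 to 15423546 in the 18m mice. The pellet carried a cortical profile at both ages. The 20 markers of cortical excitatory neurons summed to between 8101 and 8872 CPM (each library's counts scaled to a common total) at 5m and between 8036 and 9057 CPM at 18m. None of the 20 passed the test (3 at an unadjusted p under 0.05, and 1 lower by DESeq2 and by voom). Among all 16427 genes tested, 2878 were at an unadjusted p under 0.05 by edgeR. Choroid plexus markers, which report how much ventricular tissue was dissected along, varied widely within each age, from 230 to 956 CPM at 5m and from 420 to 1108 CPM at 18m. Because the homogenate holds every cell type of the cortex, fewer cells of a type and less RNA per cell cannot be told apart. Mouse 191 stood apart from the other 5m mice in its mitochondrially encoded RNA, which took 0.884% of its counts against 0.453% to 0.598% in mice 192 to 194.

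Of the 16427 genes tested, 356 (2.17%) changed between 5m and 18m at an edgeR adjusted p under 0.05. Most of them fell: 294 genes (1.79%) were lower at 18m and 62 genes (0.377%) were higher. The lower genes included immediate early genes, nuclear noncoding RNAs and many transcripts annotated inside introns, and 132 of them were protein-coding. The higher genes included complement component C4, histone H1, Pcdhb protocadherins and several glial and interneuron genes. The CPM values of the ages did not overlap in 272 of the 294 lower genes and in 60 of the 62 higher genes. Genes named below for a large change or a small p were chosen to have no overlap, so their separation was set by that choice. The changes were moderate in size. The median difference was -0.74 on the log2 scale for the lower genes and 0.62 for the higher genes, while the median over all genes tested was 0.0056. Without mouse 193 the number of changed genes was 84 and without mouse 197 it was 87, whereas without mouse 191 it was 774, so the counts given here depend on which animals entered.

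**Figure D1:**
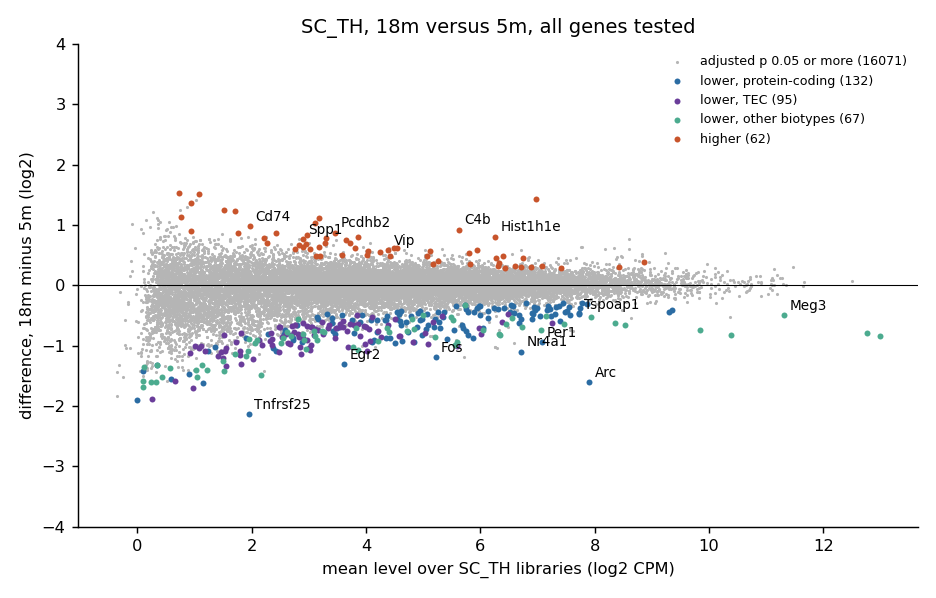
Difference between 18m and 5m in SC_TH (log2, vertical axis) against the mean level of each gene (log2 CPM, horizontal axis), 1 point per gene tested. Coloured points passed the test: 132 lower protein-coding genes, 95 lower TEC genes, 67 lower genes of other biotypes and 62 higher genes; the lower genes reach further from 0 than the higher ones over most of the range.

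Of 46 immediate early genes tested, 18 fell at 18m and none rose, against 1.79% lower among all genes, and the median difference over the 46 was -0.56 on the log2 scale. The members that fell were the effector Arc, the transcription factors Fos, Fosb, Fosl2, Egr2, Egr4, Nr4a1, Nr4a3, Klf2, Klf4 and Klf10, the phosphatases Dusp1, Dusp4 and Dusp5, the kinases Sik1 and Plk3, the clock gene Per1 and the small GTPase Arl4d.

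Arc, on chromosome 15 (74669083 to 74672570, GRCm38), encodes a synaptic protein that forms capsid-like particles and governs AMPA receptor endocytosis. Its level in SC_TH was 376, 391, 402 and 342 CPM in the 5m mice and 44.9, 155, 155 and 143 CPM in the 18m mice. Every old animal lay well below every adult animal, and mouse 195 was the lowest by far. The mean fell from 378 ± 26.0 to 124 ± 53.3 CPM (SD, n = 4 each), a difference of -1.60 ± 0.30 (SE) on the log2 scale (edgeR adjusted p = 0.0112).

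Fos, a subunit of the AP-1 transcription factor, measured 57.7, 54.5, 61.4 and 49.5 CPM at 5m and 8.88, 31.4, 26.4 and 30.6 CPM at 18m. Again no old mouse reached the adult range and mouse 195 was the lowest (difference -1.19 ± 0.25, edgeR adjusted p = 0.0204). Its relative Fosb measured 42.9, 43.5, 42.2 and 52.3 CPM at 5m and 20.1, 29.0, 19.8 and 25.8 CPM at 18m. Here the old mice were close together, and the difference of -0.94 ± 0.12 had 1 of the 5 smallest p-values among the named lower genes (edgeR adjusted p = 0.00211).

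The zinc finger factor Egr2 measured 20.3, 13.8, 21.3 and 18.5 CPM at 5m and 2.1, 12.2, 8.42 and 7.69 CPM at 18m. The highest old mouse was just below the lowest adult mouse, and the difference was -1.31 ± 0.32 (edgeR adjusted p = 0.0447). Nr4a1, an orphan nuclear receptor, measured 159, 127, 161 and 149 CPM at 5m and 34.1, 91.1, 71.1 and 82.0 CPM at 18m. Its groups were well separated and mouse 195 was once more the lowest (difference -1.10 ± 0.24, edgeR adjusted p = 0.0266). Nr4a3, of the same receptor family, measured 78.3, 62.6, 74.0 and 69.2 CPM at 5m and 38.3, 49.7, 40.3 and 41.4 CPM at 18m. The old mice were tightly grouped below the adult ones (difference -0.75 ± 0.11, edgeR adjusted p = 0.00327).

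Per1, a repressor in the circadian clock that also responds to glucocorticoids and activity, fell from 197 ± 20.6 to 103 ± 24.6 CPM (difference -0.94 ± 0.13, edgeR adjusted p = 0.00302). Sik1, a kinase that restrains CREB coactivators, fell by 0.96 on the log2 scale, and the Krüppel-like factors Klf2 and Klf4 fell by 0.93 and 1.04. The remaining 28 members did not pass. Among them Egr1 measured 506 ± 46.2 CPM at 5m and 350.1 ± 102 CPM at 18m (difference -0.53 ± 0.19, edgeR adjusted p = 0.156), with mouse 196 inside the adult range. Npas4, a factor induced only by neuronal activity, measured 24.4 ± 4.61 and 22.9 ± 4.63 CPM (difference -0.12 ± 0.19, edgeR adjusted p = 0.793), and its groups overlapped.

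Immediate early genes together took 0.146% of the counts of mouse 195 against 0.196% to 0.232% in the other 18m mice and 0.273% to 0.310% in the 5m mice. Without mouse 195, 10 members fell and the median difference over the list was -0.47. Without mouse 193 it was 8 members and a median of -0.54, and without mouse 197 or 198 it was 10 members each.

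**Figure D2:**
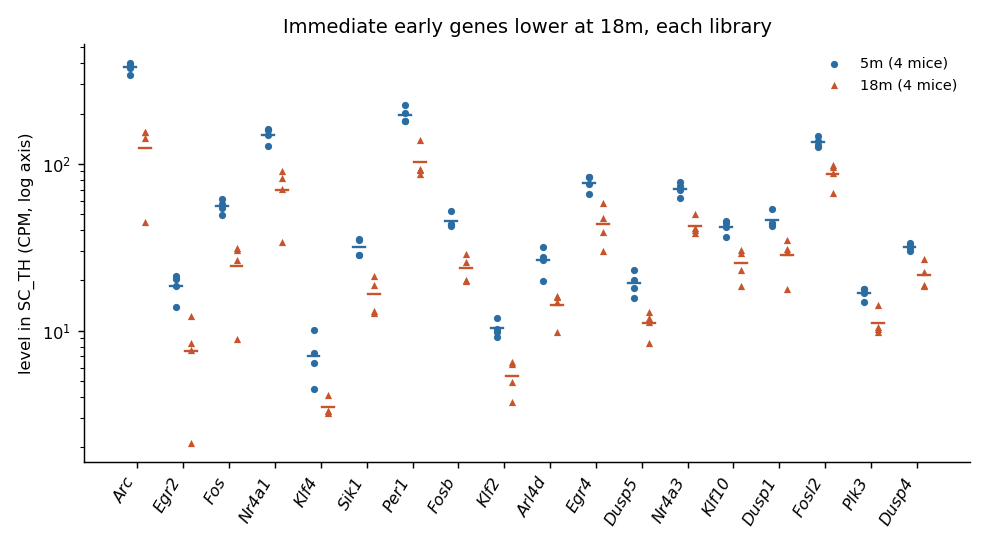
Level in SC_TH (CPM, log axis) of the 18 immediate early genes that fell, ordered by the size of the drop. Each circle is a 5m mouse, each triangle an 18m mouse and each bar the mean of 4; for Arc the triangles lie between 44.9 and 155 CPM and the circles between 342 and 402 CPM.

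The promoters of 4 of these genes are shown as a description of their sequence. Many immediate early promoters are classical targets of the transcription factor CREB, which binds the cAMP response element. A core of that element, TGACG or its reverse complement on the other strand, is in capitals. Each sequence is the RefSeq window (GRCm38.p6) from 250 bases before to 50 bases after a transcription start, written along the direction of transcription.
Fos, chr12:85473640-85473939, plus strand: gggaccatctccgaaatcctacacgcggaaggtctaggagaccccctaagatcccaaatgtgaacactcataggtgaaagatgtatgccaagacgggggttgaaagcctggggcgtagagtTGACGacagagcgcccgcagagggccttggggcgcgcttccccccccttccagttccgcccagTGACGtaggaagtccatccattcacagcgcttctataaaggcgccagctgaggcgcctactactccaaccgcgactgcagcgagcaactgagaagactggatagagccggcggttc
Fosb, chr7:19309996-19310295, minus strand: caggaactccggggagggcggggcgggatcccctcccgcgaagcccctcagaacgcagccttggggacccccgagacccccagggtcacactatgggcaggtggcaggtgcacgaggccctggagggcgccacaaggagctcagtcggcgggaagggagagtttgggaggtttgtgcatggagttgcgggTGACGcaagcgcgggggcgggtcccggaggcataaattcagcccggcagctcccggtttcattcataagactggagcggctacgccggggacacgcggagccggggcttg
Nr4a1, chr15:101266596-101266895, plus strand: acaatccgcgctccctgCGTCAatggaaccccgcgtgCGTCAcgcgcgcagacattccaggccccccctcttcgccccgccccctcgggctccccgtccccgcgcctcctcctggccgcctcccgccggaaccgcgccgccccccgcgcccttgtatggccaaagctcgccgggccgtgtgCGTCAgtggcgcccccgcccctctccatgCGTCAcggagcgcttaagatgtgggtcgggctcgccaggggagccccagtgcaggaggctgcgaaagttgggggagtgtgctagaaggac
Nr4a3, chr4:48045055-48045354, plus strand: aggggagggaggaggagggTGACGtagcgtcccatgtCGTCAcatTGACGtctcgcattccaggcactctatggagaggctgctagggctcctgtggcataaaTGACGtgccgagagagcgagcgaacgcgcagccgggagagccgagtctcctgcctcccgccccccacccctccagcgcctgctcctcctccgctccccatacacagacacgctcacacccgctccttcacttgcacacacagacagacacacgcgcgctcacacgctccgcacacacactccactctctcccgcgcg
The core begins 129 and 66 bases before the start in Fos, 60 bases before it in Fosb, at 4 places between 233 and 40 bases before it in Nr4a1, and at 4 places between 231 and 147 bases before it in Nr4a3. Of the 18 lower immediate early genes 14 had a window, and 13 of these held the core in at least 1 window. It was held by 12 of 21 immediate early genes that were tested and not called, and by 23.05% of all 27025 genes. The full palindrome TGACGTCA, which contains this core on both strands, was present in 2 of the 14 genes (Arl4d and Dusp1) and in 2.03% of all genes, and in 3 of the 21 not called. The CArG box, the site of serum response factor, was present in 2 of the 14 (Egr2 and Dusp5), in none of the 21 and in 1.81% of all genes. These matches describe the letters of the windows and were not tested as binding sites. The lower genes were chosen by their call, and whether CREB has a part in their drop was not tested.

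Of 22 glucocorticoid-responsive genes tested, 4 were lower at 18m, against 1.79% lower among all genes. They were Per1 and Dusp1, which are also immediate early genes, Tsc22d3, which encodes the anti-inflammatory protein GILZ, and Ddit4, an inhibitor of mTORC1. Without mouse 193, 195 or 197 the count was 2. Tsc22d3 measured 74.2, 88.1, 77.9 and 76.9 CPM at 5m and 48.9, 61.5, 55.0 and 58.6 CPM at 18m. All old mice were below all adult mice (difference -0.50 ± 0.09, edgeR adjusted p = 0.00938). Fkbp5 and Sgk1, standard targets of the same receptor, were not called, with differences of -0.09 and -0.32.

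Of 19 noncoding RNAs of the nucleus tested, 9 fell (6 without mouse 193) and none rose, against 1.79% lower among all genes. The median difference of the 19 was -0.43. Those that fell were Malat1, Meg3, Rian, Mirg, Miat, Kcnq1ot1, Snhg11, Mir124a-1hg and A330023F24Rik. Together the RNAs of the list took 1.1% to 1.47% of the counts of the 5m mice and 0.778% to 0.917% of those of the 18m mice, with no overlap. In input_TH the same list took 2.85% to 2.88% at 5m and 2.48% to 2.70% at 18m.

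Malat1, on chromosome 19 (5795690 to 5802672), is the abundant RNA of nuclear speckles. It measured 5699, 9102, 8585 and 5480 CPM at 5m and 3829, 4877, 3895 and 4087 CPM at 18m. The adult mice differed from each other by more than the old ones did, yet the groups did not overlap (difference -0.79 ± 0.15, edgeR adjusted p = 0.0111).

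Meg3, on chromosome 12 (109541001 to 109571726), is the maternally expressed RNA of the Dlk1-Dio3 imprinted domain, which also contains Rian and Mirg. Meg3 measured 2199, 2721, 2808 and 2390 CPM at 5m and 1861, 1890, 1662 and 1772 CPM at 18m. All old mice were below all adult mice (difference -0.49 ± 0.09, edgeR adjusted p = 0.0107), and Rian and Mirg fell by 0.52 and 0.71 on the log2 scale. Miat, which is enriched in neuronal nuclei, fell from 368 ± 66.6 to 232 ± 20.0 CPM (difference -0.66 ± 0.11, edgeR adjusted p = 0.00899). Kcnq1ot1, the antisense RNA that silences the Kcnq1 imprinted domain, fell from 162 ± 17.2 to 105 ± 4.50 CPM (difference -0.64 ± 0.09, edgeR adjusted p = 0.00302). It overlaps Kcnq1, and since reads were counted without strand the genes cannot be separated. Mir124a-1hg, a host transcript of the neuronal microRNA miR-124, fell by 0.63. Not every nuclear RNA followed: Neat1, the scaffold of paraspeckles, measured 35.4 ± 6.22 CPM at 5m and 49.5 ± 13.7 CPM at 18m (difference 0.50 ± 0.17, edgeR adjusted p = 0.144), with mouse 195 the highest.

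Outside the list, Lncpint, a p53-induced noncoding RNA, measured 22.6, 20.4, 22.6 and 21.7 CPM at 5m and 10.5, 12.4, 11.5 and 11.9 CPM at 18m. Within each age the mice were nearly equal, and the groups were far apart (difference -0.92 ± 0.13, edgeR adjusted p = 0.00292). The gene 5330406M23Rik lies inside it on chromosome 6 (31108827 to 31110920, within the Lncpint span of 31082565 to 31220488, on the same strand) and fell by 1.09. Scarna2, a small Cajal body RNA that guides modification of spliceosomal RNA, measured 34.3, 57.2, 56.1 and 48.6 CPM at 5m and 28.6, 32.4, 23.9 and 23.7 CPM at 18m (difference -0.85 ± 0.16, edgeR adjusted p = 0.0139). Its groups were separate, with mouse 191 closest to the old mice, and it did not pass without mouse 193, 197 or 198. The most abundant RNA that fell, named after its values were seen, was Gm26917, an annotated lincRNA on chromosome 17 (39843013 to 39846341) at a locus with sequence of the ribosomal RNA precursor. It measured 8053, 10280, 11068 and 12307 CPM at 5m and 6139, 6972, 4854 and 5285 CPM at 18m (difference -0.84 ± 0.12, edgeR adjusted p = 0.00264). Every old mouse was below every adult mouse. Its neighbour Gm42418 moved alike (difference -0.83 ± 0.13). In input_TH both went the other way, by 0.66 and 0.70. Pellet and input libraries were made with different kits, and whether rRNA depletion has a part in these values was not tested.

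The annotation class TEC, which holds unspliced transcript models supported by few ESTs, held many of the lower genes. Of 872 TEC genes tested, 95 fell and none rose, and 91.4% of the 872 had a difference below 0, with a median of -0.51. Protein-coding genes, by contrast, had a median of 0.03, and 132 of 13500 fell while 58 rose. That excess of lower coding genes depended on the animals and the filter: without mouse 191 there were 264 higher and 256 lower, without a filter on low counts 237 and 211, and without mouse 193 they were 7 and 35. Sense-intronic genes had a median of -0.51 with 9 of 96 lower, and lincRNA genes had a median of -0.19 with 28 of 285 lower. The lower TEC genes numbered 20 without mouse 193 or 197, 31 without 198 and 41 without 192 or 195, and the lower lincRNA genes 10 without mouse 193. Thus 32.3% of all lower genes were TEC genes, which were 5.31% of the genes tested.

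TEC genes of any call lay mainly in introns. Of the 872 tested, 644 (73.9%) lay wholly inside a tested protein-coding gene without touching a coding gene's exon, as did 73 of the 95 lower ones (76.8%). Of the 644, 97.8% were on the same strand as that gene, against 95.9% of the 73. The median difference of the 644 was -0.55, whereas that of their host genes was -0.01, and 598 of the 644 had a lower value than their host. The 73 were chosen by their call, so their values are given as a description. Of the 50 hosts of the 73, 2 were themselves lower (Clip1 and Nav1). The host Fam155a contained 6 of them, Auts2 and Kcnip4 contained 5 each and the adhesion receptor gene Adgrb3 contained 4. Gm44189, in an intron of the contactin gene Cntn3 (chromosome 6, 102174030 to 102177112), had a mean of 42.4 CPM at 5m and 21.1 CPM at 18m, a difference of -1.0 against -0.18 for Cntn3. C130089K02Rik, in an intron of Maml3 (chromosome 3, 52057285 to 52064244), measured 6.81, 6.75, 8.72 and 5.14 CPM at 5m and 3.11, 3.28, 3.21 and 3.13 CPM at 18m. The old mice were nearly identical and all below the adult ones (difference -1.11 ± 0.18, edgeR adjusted p = 0.00773), while Maml3 itself differed by 0.04. TEC genes as a class took 0.424% to 0.504% of the SC_TH counts at 5m and 0.327% to 0.342% at 18m. In input_TH the class took 0.993% to 1.07% at 5m and 0.824% to 0.961% at 18m. There 159 of 1262 TEC genes (12.6%) were lower and 13 higher, against 7.35% lower among all genes. Their median difference in input_TH was -0.25. TE was lower in 27 of 1253 TEC genes and higher in none, against 1.17% lower among all genes. Whether nuclear RNA carried into the pellet has a part in the SC_TH differences was not tested.

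**Figure D3:**
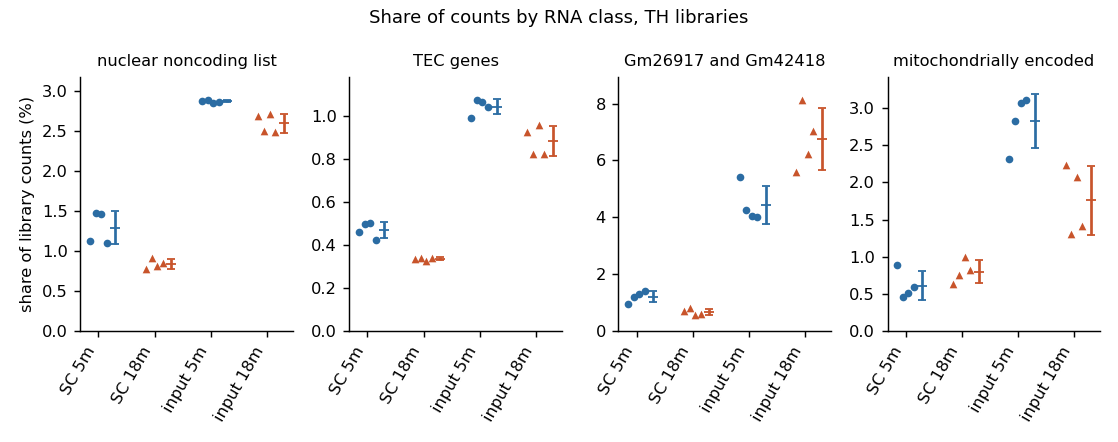
Share of each library's counts (%, vertical axes starting at 0) taken by the nuclear noncoding list, TEC genes, Gm26917 with Gm42418, and mitochondrially encoded genes, for SC_TH and input_TH. Circles are 5m mice, triangles 18m mice, and the bars beside them mean ± SD (n = 4); in SC_TH the first 3 shares are lower in every 18m mouse than in every 5m mouse.

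Among protein-coding genes that fell, Tnfrsf25, the death receptor DR3 of T cells, had the largest drop of all genes called. It measured 4.96, 7.76, 5.93 and 5.26 CPM at 5m and 1.1, 1.48, 1.49 and 1.24 CPM at 18m. The level at 18m was 22.8% of that at 5m by the fit, and no old mouse came near the adult range (difference -2.13 ± 0.23, edgeR adjusted p = 0.000836). Kdm6b, a histone H3K27 demethylase, measured 58.4, 64.8, 69.7 and 62.8 CPM at 5m and 38.4, 44.2, 35.9 and 37.5 CPM at 18m. Tet3, which oxidises 5-methylcytosine, measured 165, 185, 186 and 173 CPM at 5m and 114, 131, 115 and 111 CPM at 18m. Both chromatin enzymes were separated cleanly between the ages, with differences of -0.71 ± 0.09 and -0.59 ± 0.07 (edgeR adjusted p = 0.00182 for each).

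Among 71 splicing factors tested, 3 (4.23%) fell and none rose, against 1.79% lower among all genes; none passed without mouse 193 or 198 and 1 without 195 or 197, while 5 fell without mouse 191 and 10 in the fit of 24 libraries. They were the kinases Clk1 (difference -0.82 ± 0.16) and Clk4 (-0.59 ± 0.13), which phosphorylate SR proteins and whose transcripts often retain introns, and Snrnp70 of the U1 particle (-0.34 ± 0.07). Clk1 measured 30.4, 41.3, 42.3 and 24.1 CPM at 5m and 19.9, 18.9, 20.8 and 18.2 CPM at 18m, with mouse 194 nearest to the old mice. Of 30 collagen and basement membrane genes, the fibrillar collagens Col11a1 and Col5a1 fell and none rose, against 1.79% lower among all genes. Col11a1 measured 6.07, 6.58, 3.72 and 6.78 CPM at 5m and 3.11, 2.12, 2.98 and 2.54 CPM at 18m (difference -1.09 ± 0.22, edgeR adjusted p = 0.0185), so mouse 193 was the adult animal closest to the old ones. Neither collagen passed without mouse 197, and 1 did without any one of mice 192 to 196 or 198.

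Of 28 genes of immature neurons and growth, Sox11 and Dpysl3 fell, against 1.79% lower among all genes, but neither passed without mouse 193, 195, 197 or 198. Sox11, a transcription factor of newborn neurons, fell from 37.4 ± 4.72 to 23.8 ± 4.76 CPM (difference -0.66 ± 0.14, edgeR adjusted p = 0.0185), although mouse 196 at 30.8 CPM overlapped mouse 191 at 30.6 CPM. Slc2a1, the glucose transporter of the blood-brain barrier, was the only 1 of 22 endothelial and mural genes to pass, at -0.45 ± 0.09 (edgeR adjusted p = 0.0151), and it did not pass without mouse 197. Dnajb5, a co-chaperone of HSP70, fell by 0.50, a call lost without mouse 193, 195, 197 or 198.

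The 62 higher genes included 3 of 17 genes of complement and antigen presentation, against 0.377% higher among all genes. C4b, on chromosome 17 (34728380 to 34743882), encodes complement component 4, which tags synapses and debris for clearance. It measured 45.5, 44.0, 45.0 and 37.1 CPM at 5m and 87.2, 67.2, 82.1 and 89.2 CPM at 18m. Every old mouse was clearly above every adult mouse, with a fitted fold of 1.90 (difference 0.93 ± 0.11, edgeR adjusted p = 0.00179). Its near-identical paralogue C4a rose from 6.21 ± 1.11 to 12.9 ± 2.59 CPM (difference 1.04 ± 0.18), but reads that fit both of the 2 copies make its value uncertain. Cd74, the invariant chain of MHC class II, measured 3.4, 2.87, 2.56 and 2.1 CPM at 5m and 4.12, 5.08, 5.96 and 6.58 CPM at 18m (difference 0.98 ± 0.21, edgeR adjusted p = 0.0234). Cd74 did not pass without mouse 193, 194, 197 or 198. All 17 members had a difference above 0, while 43.8% of all protein-coding genes tested were below 0. Their median was 0.37. It was 0.21 without mouse 197, 0.23 without mouse 193, 0.19 with at least 10 counts in each library and 0.15 with thinned counts. The initiators C1qa, C1qb and C1qc, at 0.15, 0.03 and 0.20, did not pass.

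Among 21 microglial genes 1 passed, against 0.377% higher among all genes. It was the secreted phosphoprotein Spp1, with 6.73, 5.06, 5.93 and 6.78 CPM at 5m and 11, 10.3, 9.32 and 11.7 CPM at 18m. The groups were well apart (difference 0.77 ± 0.15, edgeR adjusted p = 0.0147), although the call was lost without mouse 193 or 198. The homeostatic markers P2ry12, Cx3cr1 and Tmem119 did not pass, at 0.33, 0.39 and -0.10. The immune receptors Cd180 and Tlr13, named after their values were seen, differed by 1.54 ± 0.37 and 1.37 ± 0.27, at low levels of 1.95 and 2.53 CPM on average in the 18m mice (edgeR adjusted p = 0.0377 and 0.0168).

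Clustered protocadherins, the cell-surface adhesion proteins that give neurons distinct identities, contributed 5 of 54 tested, with none lower, against 0.377% higher among all genes. They were Pcdhb2, Pcdhb3, Pcdhb7, Pcdhb9 and Pcdhb11, all of the beta cluster. Pcdhb2 measured 9.03, 10.3, 7.56 and 6.66 CPM at 5m and 14.9, 15.8, 14.6 and 15.8 CPM at 18m. The old mice were almost equal and all above the adult ones (difference 0.87 ± 0.13, edgeR adjusted p = 0.00302). Pcdhb9 rose from 19.4 ± 2.22 to 29.6 ± 2.21 CPM (difference 0.62 ± 0.11, edgeR adjusted p = 0.011). Pcdhb7 measured 2.22, 6.41, 6.28 and 5.50 CPM at 5m and 14.1, 9.94, 6.71 and 11.6 CPM at 18m. Its groups nearly touched, since mouse 197 was just above mouse 192 (difference 1.12 ± 0.28, edgeR adjusted p = 0.0427). These are single-exon genes of similar sequence, so reads may fit several of them and their values are uncertain. The count was 2 without mouse 193 or 198, 3 without 194, 195, 196 or 197 and 9 without 191. In input_TH 16 of the 54 were higher and none lower, against 8.18% higher among all genes there.

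Replication-dependent histone genes, whose mRNAs lack a poly(A) tail but are retained in libraries made by rRNA depletion, contributed 4 of 30, against 0.377% higher among all genes. They were the linker histones Hist1h1a, Hist1h1c and Hist1h1e and the H2A gene Hist2h2ac. In input_TH 10 of 29 histone genes were higher and 1 lower, against 8.18% higher among all genes there. Hist1h1e measured 64.4, 56.2, 48.4 and 65.0 CPM at 5m and 143, 109.7, 76.0 and 82.3 CPM at 18m. Mouse 195 was the highest and all old mice exceeded the adult ones (difference 0.80 ± 0.15, edgeR adjusted p = 0.0139). Without mouse 193 no histone gene of the list passed, and without mouse 192, 195 or 198 it was 1.

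Olig2, the transcription factor of the oligodendrocyte lineage, measured 26.6, 28.8, 22.9 and 26.1 CPM at 5m and 36.8, 36.2, 35.9 and 37.1 CPM at 18m. It was very uniform among the old mice (difference 0.49 ± 0.09, edgeR adjusted p = 0.0104). Of 26 genes of mature oligodendrocytes and myelin, Apod and Cryab rose, at 0.46 ± 0.10 and 0.54 ± 0.13, against 0.377% higher among all genes. No gene of that list passed without mouse 193, 197 or 198, 1 did without 192, 195 or 196, and 5 did without 191. Mbp, which encodes myelin basic protein, did not pass, at 0.35 ± 0.09 (edgeR adjusted p = 0.0561). Of 20 interneuron and neuropeptide genes, Vip and Calb1 rose, beside the same share of 0.377% higher among all genes. Vip, the peptide of disinhibitory interneurons, measured 19.6, 18.0, 14 and 19.6 CPM at 5m and 27.2, 26.1, 25.7 and 28.3 CPM at 18m (difference 0.59 ± 0.11, edgeR adjusted p = 0.0111). Calb1, a calcium buffer, differed by 0.28 ± 0.07 and did not pass when any one of mice 192 to 198 was left out, whereas Vip did. Without mouse 191 4 members passed. In all, 19 of the 20 members had a difference above 0, while 43.8% of all protein-coding genes tested were below 0. Other lists varied in this. Above 0 were 60 of 69 respiratory chain, 30 of 33 proteasome, 36 of 70 synaptic protein and 24 of 71 splicing factor genes.

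Other single genes that rose included Lgr6, a receptor for R-spondins, from 4.97 ± 0.437 to 8.83 ± 1.24 CPM (difference 0.84 ± 0.16, edgeR adjusted p = 0.0143). Eps8l2, an actin-capping protein, rose from 3.19 ± 0.672 to 5.59 ± 0.802 CPM (difference 0.78 ± 0.18, edgeR adjusted p = 0.0363). Hist2h2bb and Pkdrej rose by 0.78 and 0.87 on the log2 scale, and the transcribed pseudogene Pisd-ps1 by 0.81. Hist2h2bb is a histone H2B gene that was not in the histone list above. Over the alternative fits the call was lost in 2 of 19 for Lgr6, 9 of 19 for Eps8l2 and 8 of 19 for Hist2h2bb. It was lost in 5 of 18 for Pkdrej and 3 of 19 for Pisd-ps1. AC149090.1, named after its values were seen, measured 77.8, 51.3, 107 and 101.4 CPM at 5m and 214, 273, 253 and 181 CPM at 18m. The old mice were all far above the adult ones (difference 1.44 ± 0.19, edgeR adjusted p = 0.00228).

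**Figure D4:**
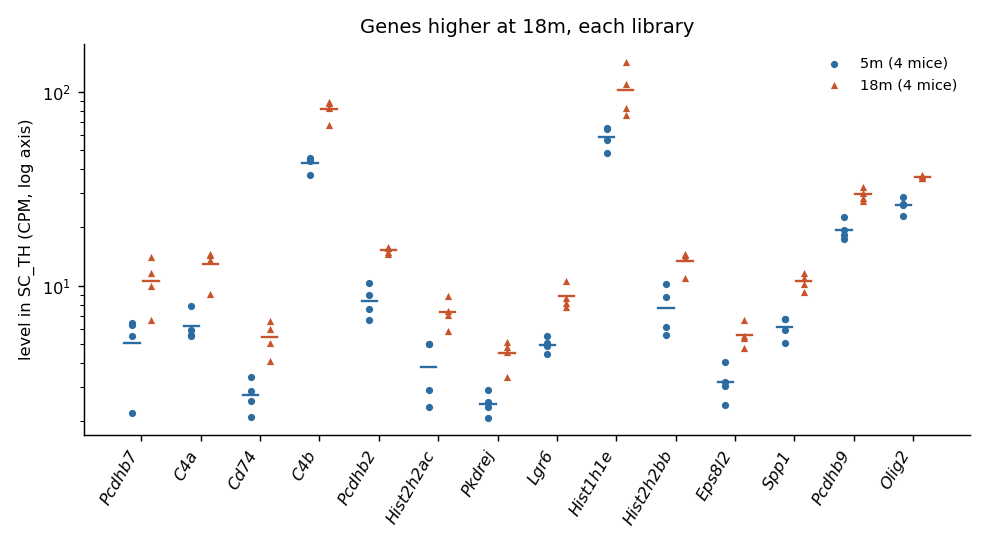
Level in SC_TH (CPM, log axis) of 14 named higher genes, ordered by the size of the increase. Circles are 5m mice, triangles 18m mice and bars the means of 4; C4b lies between 37.1 and 45.5 CPM at 5m and between 67.2 and 89.2 CPM at 18m.

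None of 81 cytosolic ribosomal protein genes passed, with a median difference of 0.16 and 9 at an unadjusted p under 0.05. Rpl8 measured 124 ± 15.7 CPM at 5m and 153 ± 12.6 CPM at 18m (difference 0.30 ± 0.10, edgeR adjusted p = 0.134). None of 48 translation factors, 69 nuclear genes of the respiratory chain, 33 proteasome genes and 70 synaptic protein genes passed either, at medians of 0.10, 0.14, 0.14 and 0.01. In these 4 lists 10, 20, 14 and 7 genes were at an unadjusted p under 0.05 by edgeR. All such counts stand beside 2878 of 16427 among all genes tested. DESeq2 called 1 translation factor higher and 1 lower, 1 respiratory gene higher, 0 proteasome genes and 1 synaptic gene lower. With voom 3 ribosomal protein genes, 2 translation factors, 3 respiratory genes and 1 synaptic gene were higher, 1 translation factor was lower, and 0 proteasome genes passed. None of 24 astrocyte genes passed by edgeR (5 at an unadjusted p under 0.05, 1 higher by DESeq2 and 2 by voom). Choroid plexus, meningeal, erythroid, striatal, hippocampal and interferon genes had no member that passed by edgeR, DESeq2 or voom, with 0, 1, 2, 1, 1 and 1 at an unadjusted p under 0.05. Apoe, a lipid carrier made by astrocytes, and Serpina3n, a marker of reactive astrocytes, differed by 0.23 ± 0.07 and 0.56 ± 0.17 (edgeR adjusted p = 0.0827 and 0.0938).

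The 15 mitochondrially encoded genes had a median difference of 0.48, with 13 above 0 and 10 at an unadjusted p under 0.05, but none passed by edgeR or DESeq2 and 4 were higher with voom. mt-Rnr2, the large mitochondrial ribosomal RNA, measured 456, 422, 344 and 298 CPM at 5m and 392, 398, 823 and 563 CPM at 18m. The groups overlapped and mice 197 and 198 were the highest (difference 0.52 ± 0.19, edgeR adjusted p = 0.169). Without mouse 191, whose share of mitochondrial counts was the highest of the adult mice, 10 of the 15 rose and 1 fell. In that fit 774 of all 16678 genes tested were called.

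Whether these changes were already present in the homogenate was examined in the input_TH libraries of the same mice. There 2808 of 18078 genes (15.5%) changed, 1479 higher (8.18%) and 1329 lower (7.35%). Of the 294 genes lower in SC_TH, 89 were also lower in input_TH and 12 were higher, with a median of -0.21 in input_TH against -0.74 in SC_TH. Of the 62 genes higher in SC_TH, 20 were also higher in input_TH and 1 was lower (Sdcbp), with a median of 0.24 against 0.62. Both sets were chosen by their call in SC_TH, which favours larger values there. These medians therefore do not compare the size of the change between the fractions.

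Immediate early genes were lower in the homogenate too, with 21 of 48 tested, against 7.35% lower among all genes there. Of the 18 that fell in SC_TH, 13 fell in input_TH. Arc fell there by 1.14 and Nr4a3 by 0.75, equal to its drop in the pellet. Of the 9 nuclear noncoding RNAs that fell in SC_TH, 5 were also lower in input_TH and none was higher. Over the whole list 6 of 20 were lower in input_TH and 2 were higher, against 7.35% lower among all genes there. Meg3 and Miat, in contrast, were level in input_TH, at 0.02 ± 0.05 and 0.03 ± 0.07 (edgeR adjusted p = 0.802 and 0.80), although both fell in SC_TH. Of the higher genes, C4b (0.78), Pcdhb2 (1.04) and Hist1h1e (0.75) rose in input_TH as well. Spp1 and Cd74 did not, at -0.31 ± 0.47 and -0.50 ± 0.54, where mouse 191 was the highest input library at 17.0 and 17.6 CPM.

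**Figure D5:**
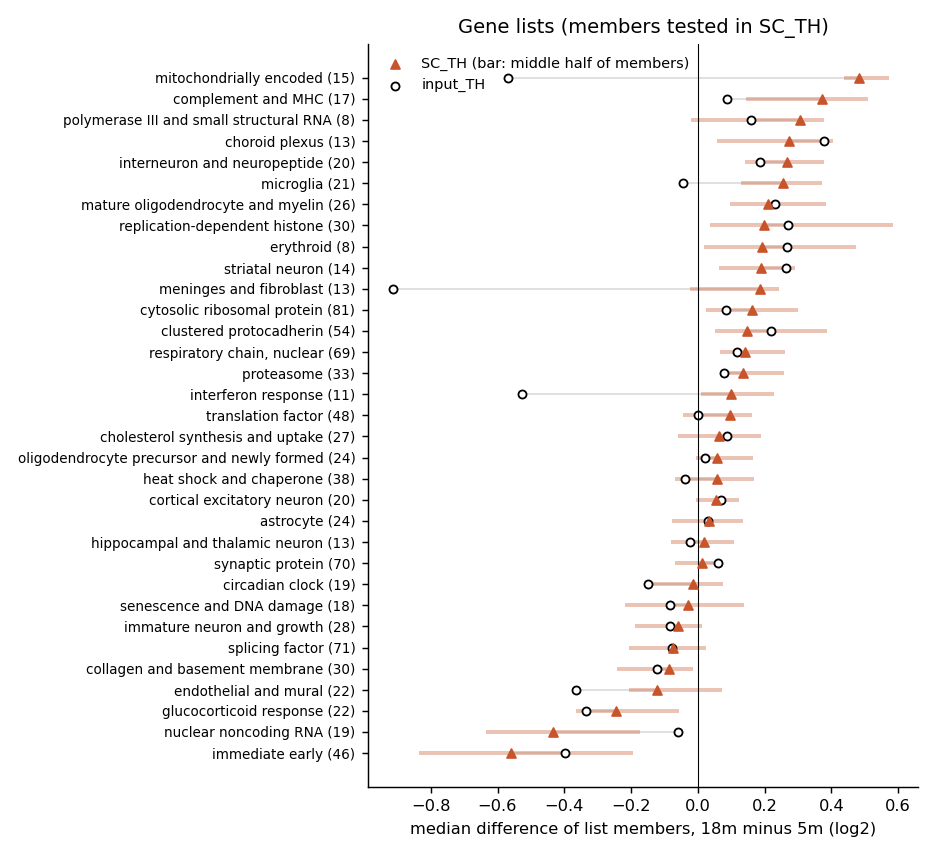
Median difference between 18m and 5m (log2, horizontal axis) of the members of 33 gene lists, with the number tested in SC_TH in brackets. Triangles are SC_TH with a bar over the interquartile range of the members, open circles are input_TH; immediate early genes lie at -0.56 and -0.40, nuclear noncoding RNAs at -0.43 and -0.06, and mitochondrially encoded genes at 0.48 and -0.57.

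The difference between the fractions was tested directly as a change of TE, the interaction of fraction and age over all 24 TH libraries. TE changed in 328 of 18416 genes (1.78%), with 112 higher (0.608%) and 216 lower (1.17%). With library size in place of TMM scaling the split was 157 higher and 140 lower. Without mouse 193 TE changed in 33 genes and without mouse 191 in 1282. The TE values include the same SC libraries as above, so they describe the same animals and add no independent support for the changes in SC_TH.

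None of 48 immediate early genes passed the test of TE, and the TE of Arc differed by -0.47 ± 0.43 (edgeR adjusted p = 0.628). Of 20 nuclear noncoding RNAs 6 had a lower TE, against 1.17% lower among all genes. They included Meg3 at -0.52 ± 0.11 (edgeR adjusted p = 0.0169) and Miat at -0.69 ± 0.14 (edgeR adjusted p = 0.0125). The others were Malat1, Mir124a-1hg, Snhg11 and Firre, at -0.63, -0.50, -0.39 and -0.57. Outside the list, TE was also lower for Lncpint and Scarna2, at -0.60 and -1.01. Of the 15 mitochondrially encoded genes 7 had a higher TE, with a median of 1.09, against 0.608% higher among all genes. Their level fell in input_TH, where 13 of 15 were lower, with a median of -0.57, against 7.35% lower among all genes there. mt-Rnr2 had a TE difference of 1.55 ± 0.36 (edgeR adjusted p = 0.0271). It is a ribosomal RNA, and pellet and input libraries were made with different kits. Whether rRNA depletion has a part in its value was not tested. For RNAs that are not translated, TE is here only the ratio of pellet to input.

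Tspoap1 and Snrnp70 moved in opposite directions in the fractions. Tspoap1, an organiser of presynaptic calcium channels, fell from 236 ± 22.2 to 169 ± 11.9 CPM in SC_TH but rose from 395 ± 18.9 to 467 ± 39.9 CPM in input_TH, a TE difference of -0.72 ± 0.11 (edgeR adjusted p = 0.00277). Snrnp70 fell by 0.34 in SC_TH and rose by 0.22 in input_TH (TE -0.57 ± 0.09, edgeR adjusted p = 0.00383). Col11a1 had a TE difference of -1.33 ± 0.21 (edgeR adjusted p = 0.00324). Eif4g1, the scaffold of the cap-binding complex, and Gigyf1, a partner of the translational repressor 4EHP, had TE differences of -0.51 ± 0.09 and -0.61 ± 0.11 (edgeR adjusted p = 0.00674 for each).

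In the other direction, Necab1 rose from 73.6 ± 5.34 to 94.8 ± 1.57 CPM in SC_TH, with 72.9 ± 5.17 and 63.1 ± 4.27 CPM in input_TH (TE 0.57 ± 0.10). Sdcbp, which encodes the scaffold syntenin, was higher in SC_TH and lower in input_TH (TE 0.59 ± 0.10). The phosphatase subunit Ppp6c, the RNA-binding protein Elavl1 and the transcription factor Atf2 had TE differences of 0.79 ± 0.14, 0.49 ± 0.09 and 0.45 ± 0.08, and all 3 were lower in input_TH, while none of the 3 passed in SC_TH (edgeR adjusted p = 0.159, 0.0827 and 0.0916).

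In the matching pellets of synaptosomes (SC_SYN) of the same mice, 2 of 14240 genes passed (0.014%). Immediate early genes had a median difference of -0.51 there over 44 tested, with none called. The nuclear noncoding RNAs had a median of 0.24 over 17 tested, opposite in sign to SC_TH, also with none called. The difference between SC_TH and SC_SYN was not tested.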

How the data were processed

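Sucrose cushion libraries were made by the authors with a directional kit, rRNA depletion and molecular adaptors (single-end reads), and input libraries with a low-input stranded kit on another instrument. According to the study's methods they mapped reads with TopHat2 to GRCm38 and summed them per gene with featureCounts, ignoring strand. The labels give TopHat2 2.1 and bcl2fastq 2.20.0.422. How reads that fit overlapping, antisense or near-identical genes were handled is not given, so the values of such genes are uncertain. Whether molecular adaptors were used to collapse duplicates, and which sequencing run each library was on, is not given in the sources used here. The deposited values are raw counts per gene, not normalized by the authors.

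Counts of the 12 SC_TH libraries of 3 ages were fitted together, so that all share 1 estimate of spread. The test was the quasi-likelihood test of edgeR 4.0.16 (R 4.3.3) with TMM scaling, filterByExpr, the contrast 18m minus 5m and Benjamini-Hochberg adjustment at 0.05. CPM are TMM-scaled. TE was the interaction of fraction and age over 24 TH libraries. Mouse numbers are shared between SC_TH and input_TH because both came from the same animal; deviations from the group mean correlated between the fractions with r from -0.04 to 0.18 over the 12 mice. No SC_TH pair of 1 age agreed within sampling noise (chi-square per gene 3.62 to 14.6). Code was tested on simulated data. Gene classes and positions come from GENCODE M21 (GRCm38); 48144 of 48526 gene identifiers matched. Alternatives were DESeq2 1.42.0, limma 3.58.1 voom with quality weights, other scalings and filters, thinned counts, a correction for GC content and length, and leaving out each mouse.

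Genes and lists were chosen with earlier results of these data known. The naming rule took called genes whose ages did not overlap and whose higher age averaged 50 counts or more: the 12 largest changes, the 5 smallest p and 4 noncoding genes each way. It added up to 5 called members of each list (else the 1 or 2 smallest p) and the 5 smallest TE p each way. Genes outside it are described as such or as list members.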

Additional observations from a re-analysis of the deposited data

Results flagged for a closer look

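In 222 groups of 4 mice, 1 value stood apart from the other 3 in 7 groups (Dixon's test at 95%), where chance would give about 1 in 20, or 11.1. In the 18m mice these were Arc in mouse 195 (44.9 CPM), and Klf4 (4.12 CPM), Per1 (139.6 CPM), Sdcbp (119 CPM) and Serpina3n (20.5 CPM) in mouse 196. In the 5m mice they were Dusp1 in mouse 193 (53.5 CPM) and Fosb in mouse 194 (52.3 CPM). Without mouse 195 the immediate early list had 10 members lower, and without mouse 196 it had 19.

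The change with age differed between SC_TH and input_TH, by the test of TE, in 18 named genes. TE was lower at 18m for Col11a1 (-1.33), Scarna2 (-1.01), Col5a1 (-0.90), Tspoap1 (-0.72), Miat (-0.69), Gigyf1 (-0.61), Lncpint (-0.60), Snrnp70 (-0.57), Meg3 (-0.52), Eif4g1 (-0.51), Mir124a-1hg (-0.50) and Kdm6b (-0.45). It was higher for mt-Rnr2 (1.55), Ppp6c (0.79), Sdcbp (0.59), Necab1 (0.57), Elavl1 (0.49) and Atf2 (0.45), all on the log2 scale.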

How the results depend on the processing

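The number of genes called in SC_TH (356) depended on the fit. The direction of the named genes did not, but many of them were chosen for a clear difference in these data. DESeq2 called 120 genes higher, and limma voom called 677 (206 higher, 471 lower). Without a filter on low counts 746 were called (252 and 494), in a fit of the 8 libraries alone 228 (31 higher), and in a fit of the 24 TH libraries 1015 (272 and 743). With counts thinned to the smallest library, which leaves fewer reads and 13822 genes tested, 111 were called (14 and 97), and with the GC and length trend removed 514 (140 and 374). Leaving out 1 mouse gave 84 to 774 genes, 10 to 279 higher and 74 to 495 lower. For TE (328), DESeq2 gave 719, a minimum of 10 counts 517, and leaving out 1 mouse 33 to 1282. With the mouse as a replicate block, TE changed in 374 genes, of which 277 were among the 328. Apart from the thinned counts, which hold fewer reads, the cause was not tested.

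Of 62 named genes called, 20 were called in every alternative run, and none of the 98 named genes changed sign. The naming rule favoured separated ages, large changes and small p, so the constant sign was largely set by the choice of genes. Leaving out mice, 8 to 20 immediate early genes, 6 to 9 nuclear noncoding RNAs and 20 to 127 TEC genes were lower. The 4 mice per age and the unknown assignment of libraries to sequencing runs limit these comparisons. Without mitochondrially encoded genes their list has no value.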

Other observations

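Several further regulators of chromatin and transcription, picked after their values were seen and therefore not a tested group, were among the lower genes of SC_TH. The DNA methyltransferase Dnmt3a measured 158 ± 13 CPM at 5m and 122 ± 5.93 CPM at 18m (difference -0.37 ± 0.08), the histone methyltransferases Kmt2b and Setd1b differed by -0.38 and -0.37, the demethylase Kdm5c by -0.29 and the repressor Spen by -0.42. All 5 had differences within 0.16 of 0 in input_TH, and Spen and Kmt2b had a lower TE.

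Protein-coding genes that fell had longer transcripts, with a median exonic length of 6550 bases against 4639 bases in genes that were not called. With coding genes split into 4 groups of nearly equal size by this length, 56 fell in the longest group and 18 in the shortest, while 7 and 18 rose. The median difference over all genes of these groups was -0.02 in the longest and 0.09 in the shortest. Whether the number of counts per gene has a part in this was not tested. The GC content of the protein-coding genes that fell was a median of 52.1% against 49.9%.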
